A study of Mus musculus with 208 samples.

Results

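Immediate early genes are transcribed within minutes of a stimulus, from factors already present in the cell and without new protein synthesis, and their messages are short-lived. Most encode transcription factors that pass the signal on to later genes, and some encode proteins that end the signal. In the heart they are best known as the first genes to respond to catecholamines, stretch and pressure load. Here 10 of them were followed by gene symbol: the AP-1 subunits Fos, Fosb, Jun and Junb, the zinc finger factor Egr1, the stress factor Atf3, Ier2, Ier3, Myc, and Dusp1, a phosphatase that switches MAP kinases off. They are 10 of the 16593 genes named on the Illumina MouseRef-8 v2.0 array, and were read by 11 of its 25697 gene probes, with 2 probes for Myc and 1 for every other gene.

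The samples were left ventricles of female mice of the Hybrid Mouse Diversity Panel, a collection of classical inbred and recombinant inbred (RI) strains. ISO hearts came from mice that received isoproterenol, a β-adrenergic agonist, for 3 weeks from a minipump placed in the abdominal cavity, and untreated hearts came from mice of the same strains without the drug. The sample labels give a dose of 30 μg per g per day and the series text gives 20, an age of 10 weeks, and a start at 8 to 9 weeks. There were 208 arrays, from 93 strains with ISO hearts and 93 strains with untreated hearts, and 9 and 13 of these strains had a pair of arrays. Both conditions were measured in 87 strains, 27 classical and 60 RI. Each array held RNA pooled from mice of a strain, so that the spread between mice within a strain was not measured. In whole ventricle, fewer cells of a type and less RNA per cell cannot be told apart.

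Some arrays and BeadChips (the slides, with 8 arrays each) stood apart. The share of probes detected ranged over arrays between 28.9% and 50.3% in ISO hearts and between 38.1% and 49.6% in untreated hearts. The 26 BeadChips fell into 3 sets by slide number, with 24, 52 and 26 ISO arrays and 24, 60 and 22 untreated arrays. In 5 arrays the similarity to the rest of their condition was low, 2 of ISO hearts (AXB-19/PgnJ and NOD/LtJ) and 3 of untreated hearts (AXB-4/PgnJ, AXB-6/PgnJ and BXD69/RwwJ). Similarity came from the distances between arrays over all probes, summed for each array, and a z-score under -2.5 was counted as low. Each array was matched to the arrays of the opposite condition over the 500 most variable probes, and 117 of 196 resembled their own strain best. On BeadChips 12, 19, 23, 24 and 25 none of the 7, 8, 3, 8 and 2 arrays matched did. For those on BeadChips 12, 23 and 25, the arrays of their strain in the opposite condition were in another BeadChip set. There a poor match of the strain cannot be told apart from a difference between sets. On BeadChips 19 and 24 each strain had arrays of both conditions on the same BeadChip. The cause of the poor match on these was not tested. For the response and for pairs of genes, values without BeadChips 12, 19, 23 and 24 or without the 5 arrays are given where they ended a call.

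The promoters of Fos, Junb, Atf3 and Dusp1 are shown first. Each is the stretch of 250 bases before the start of transcription, 5′ to 3′ on the strand of the gene (RefSeq, GRCm38.p6). RefSeq promoters were matched for 7 of the 10 genes, and those of Egr1, Ier2 and Myc are named only. Capitals mark TGACG or its reverse complement, the core of the cAMP response element (CRE), through which β-adrenergic signalling is known to reach early genes.
Fos (chr12:85473640-85473889, plus strand): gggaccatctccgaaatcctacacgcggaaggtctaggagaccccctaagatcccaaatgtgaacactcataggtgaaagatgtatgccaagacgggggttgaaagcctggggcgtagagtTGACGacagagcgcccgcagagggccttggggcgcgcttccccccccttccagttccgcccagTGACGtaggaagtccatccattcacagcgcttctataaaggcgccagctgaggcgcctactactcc
Junb (chr8:84978749-84978998, minus strand): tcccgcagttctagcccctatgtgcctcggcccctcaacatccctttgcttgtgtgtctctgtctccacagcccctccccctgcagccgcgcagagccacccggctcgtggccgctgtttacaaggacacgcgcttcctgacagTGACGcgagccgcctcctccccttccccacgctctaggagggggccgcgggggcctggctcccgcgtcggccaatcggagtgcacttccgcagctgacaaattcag
Atf3 (chr1:191183334-191183583, minus strand): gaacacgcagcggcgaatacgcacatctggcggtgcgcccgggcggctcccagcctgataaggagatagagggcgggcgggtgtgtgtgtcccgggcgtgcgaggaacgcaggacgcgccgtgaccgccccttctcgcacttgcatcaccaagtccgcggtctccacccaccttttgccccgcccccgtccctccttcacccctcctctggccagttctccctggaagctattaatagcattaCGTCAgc
Dusp1 (chr17:26508473-26508722, minus strand): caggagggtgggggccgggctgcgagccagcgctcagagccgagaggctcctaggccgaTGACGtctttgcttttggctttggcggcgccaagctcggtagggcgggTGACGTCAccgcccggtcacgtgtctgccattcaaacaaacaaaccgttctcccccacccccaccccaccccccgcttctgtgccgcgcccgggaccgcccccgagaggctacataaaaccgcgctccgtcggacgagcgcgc
The core was found in 5 of the 7 promoters (Fos, Fosb, Junb, Atf3 and Dusp1), against 17.8% of all 32851 promoters of the same length. The promoters of Jun and Ier3 held no copy. They and the Fosb promoter are not shown, so that every promoter shown holds the core. Junb held 1 copy. In Fos the copies began 129 and 66 bases before the start, in Atf3 7 bases and in Dusp1 191, 143 and 140 bases. The last 2 of Dusp1 overlap and form the full palindrome TGACGTCA, which 1.55% of all promoters held. The AP-1 site TGANTCA, found in 6.75% of all promoters on either strand, was in none of the 7, and neither was the CArG box that serum response factor binds, which 1.47% of all promoters held. An EGR site, GCGNGGGCG, was in the Fosb promoter and in 4.7% of all promoters. These are matches of letters within 250 bases, sites farther from the start were not searched, and no binding was measured.

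To ask whether chronic ISO left immediate early genes changed, each strain's ISO level was set against its own untreated level on the log2 scale. After 3 weeks, Junb and Fos were higher in ISO hearts and the other 8 genes did not pass the test, which asked for an adjusted p under 0.05 and a change over 0.2. Of the 11 probes 2 were called higher and 0 lower. Of all probes, 3.72% were called higher, 3.53% lower and 7.25% either way, so that the count among these few probes is not a result about the group.

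Junb, an AP-1 subunit that can restrain Jun, had the clearest change. Its lowest, median and highest strain levels were 7.38, 8.50 and 10.26 in ISO hearts, against 7.12, 8.13 and 10.10 in untreated hearts. The 2 ranges overlapped over most of their length, and the change showed within strains. Junb was 39.5% higher in ISO hearts (log2 difference 0.48, SE 0.06, 95% interval 0.37 to 0.59, n = 87 strains, adjusted p = 4.48e-11 by limma), with 73 of 87 strains higher and 14 lower. Among the 11735 probes detected on at least 50% of arrays, 1.01% had as many strains higher. The plot of the Junb difference by strain shows how it was spread over the panel.

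**Figure D1:**
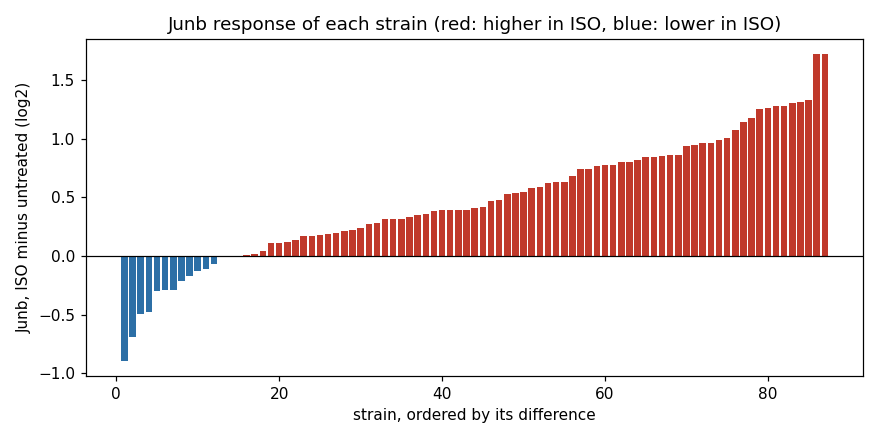
Junb difference between ISO and untreated hearts (log2, y axis) for each of the 87 strains, ordered along the x axis by that difference. Red bars are the 73 strains that were higher in ISO hearts and blue bars the 14 that were lower. The strain differences run between -0.89 and 1.72.

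Fos, the partner of Jun proteins in AP-1, was low on the array. Its lowest, median and highest strain levels were 4.62, 5.99 and 8.30 in ISO hearts, against 4.51, 5.85 and 9.39 in untreated hearts. The groups overlapped almost wholly, and the highest level of all was that of untreated NOD/LtJ. Fos was 21.8% higher in ISO hearts (log2 difference 0.28, SE 0.09, 95% interval 0.11 to 0.46, adjusted p = 0.0154 by limma), with 59 of 87 strains higher. It was detected on 86.3% of ISO arrays and 76.4% of untreated arrays. The call was lost when strains were not paired, where the difference was 0.18 and the adjusted p 0.48. Without background correction the adjusted p was 0.0346 but the difference was 0.11, under the 0.2 asked for, so that the size of the Fos change depends on how background is treated.

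Jun, the founding member of AP-1, passed the adjusted p but not the fold. Its strain levels were 7.56, 8.66 and 10.98 at the lowest, median and highest in ISO hearts, against 7.59, 8.48 and 9.99 in untreated hearts. The difference was 0.16 (SE 0.05, adjusted p = 0.0219 by limma), with 57 of 87 strains higher in ISO hearts. By adjusted p alone 6.7% of all probes were higher in ISO hearts. The highest ISO level was that of AXB-19/PgnJ, 1 of the 5 arrays of low similarity. Without those 5 arrays the difference was 0.10 and the adjusted p 0.129. The Jun level ran against the share of probes detected on the ISO arrays (r = -0.71, and -0.45 without the arrays of low similarity). The part of this in the Jun difference was not tested.

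Fosb, a Fos relative, was detected on 13.7% of ISO arrays and 17.9% of untreated arrays. Its strain levels were 4.44, 4.83 and 6.04 at the lowest, median and highest in ISO hearts, against 4.43, 4.85 and 7.34 in untreated hearts. Most strains thus lay near background in both groups, and its difference was -0.05 (SE 0.05, adjusted p = 0.642 by limma).

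Atf3, a CREB family factor induced by stress, varied most between strains. Its strain levels were 4.68, 6.56 and 9.70 at the lowest, median and highest in ISO hearts, against 4.69, 6.39 and 9.54 in untreated hearts. Its SD over strains was above that of 97.4% of detected probes in ISO hearts and 97.5% in untreated hearts. The difference of 0.26 (SE 0.12, 95% interval 0.01 to 0.51) did not pass the test (adjusted p = 0.174 by limma). In single strains it ran between -2.47 in AXB10/PgnJ and 3.51 in LG/J.

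Egr1, a factor induced through serum response factor, had the same median in both groups. Its strain levels were 7.69, 9.66 and 11.24 at the lowest, median and highest in ISO hearts, against 8.04, 9.66 and 12.06 in untreated hearts. The difference was 0.06 (SE 0.09, 95% interval -0.11 to 0.23, adjusted p = 0.748 by limma). The lowest ISO level, of MA/MyJ, came from BeadChip 23, where none of the arrays matched resembled its own strain best.

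Dusp1, which dephosphorylates MAP kinases, and Ier3, a regulator of cell survival, were the brightest probes of the group. Dusp1 strain levels were 10.65, 11.53 and 12.27 at the lowest, median and highest in ISO hearts, against 10.23, 11.64 and 12.51 in untreated hearts. Its difference of -0.08 (SE 0.05, 95% interval -0.17 to 0.01, adjusted p = 0.249 by limma) did not pass the test. Ier3 strain levels were 9.80, 11.35 and 12.27 in ISO hearts, against 9.97, 11.31 and 12.50 in untreated hearts, and its difference was 0.03 (SE 0.05, adjusted p = 0.818 by limma). Probes differ in brightness for reasons other than abundance, so these levels do not rank the genes.

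Ier2 was detected on 1 ISO array and on 0 untreated arrays. Its highest ISO level, 6.09, was that of NOD/LtJ. Neither probe of Myc, a growth factor-induced transcription factor, was detected on any of the 208 arrays. Differences at background are no measure of these genes.

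**Figure D2:**
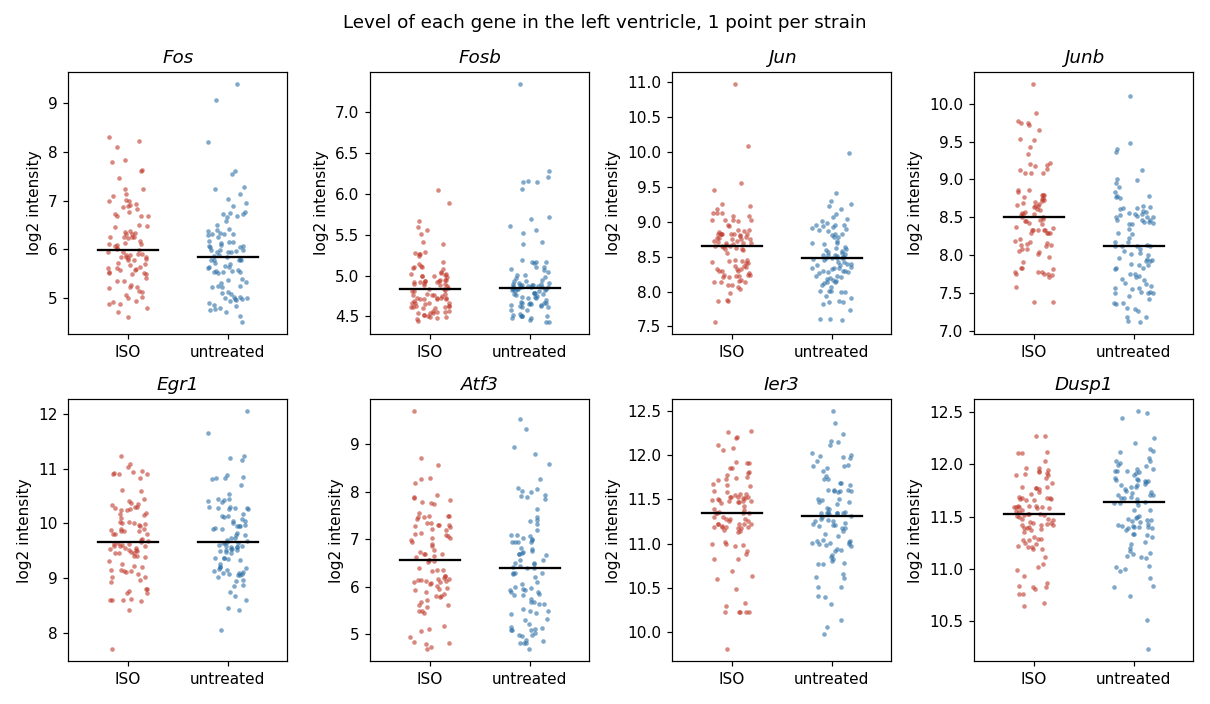
Strain levels (log2 intensity, y axis) of the 8 genes that were detected on more than 1 array, with ISO hearts left of untreated hearts, 1 point for each of 93 strains and a black line at the median. Junb has the largest shift of the median (8.50 in ISO hearts and 8.13 in untreated hearts), and the point clouds overlap for every gene.

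The response differed in size over the BeadChip sets, each of which held both groups. In sets 1, 2 and 3, with 24, 52 and 16 strains, the Junb difference was 0.64, 0.52 and 0.26 (adjusted p 0.000652, 9.44e-09 and 0.392 by limma). The Fos difference was 0.42, 0.37 and 0.15, past the threshold in set 2 alone. That of Egr1 was 0.40, 0.16 and -0.44, and that of Atf3 -0.19, 0.42 and 0.38. Atf3 passed the threshold in set 2 (adjusted p = 0.0288 by limma), though not over all strains. Thus Junb, Fos and Jun kept their sign in all 3 sets and Egr1 and Atf3 did not. Differences between the sets were not tested. Without BeadChips 12, 19, 23 and 24 the Junb difference was 0.53, and that of Fos was 0.38.

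**Figure D3:**
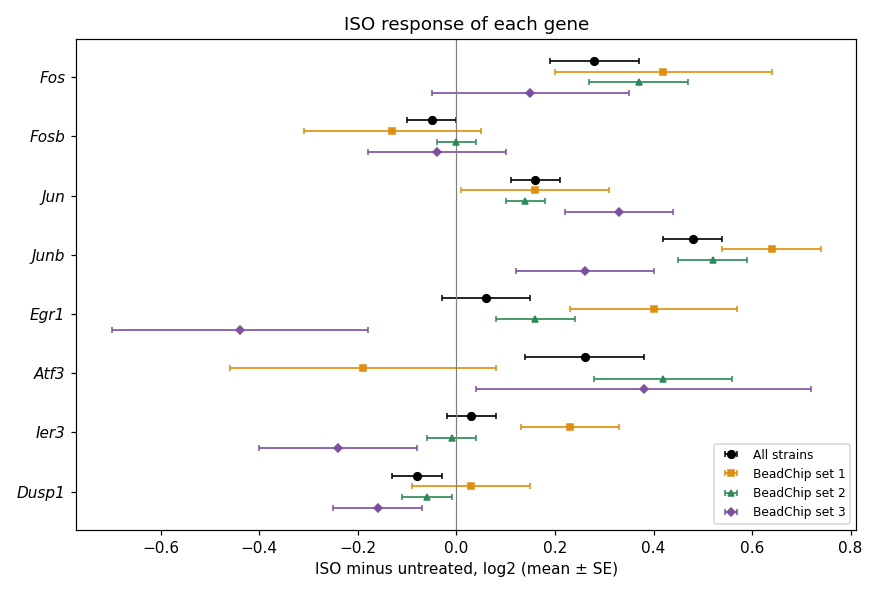
Difference between ISO and untreated hearts (log2, x axis) of the 8 genes that were detected on more than 1 array, as the mean and SE over all 87 strains (black circles) and within BeadChip sets 1, 2 and 3 (coloured symbols). Junb lies to the right of zero throughout, at 0.48 over all strains, while Egr1 lies on both sides.

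Classical and RI strains were compared for the size of the response. The Junb difference averaged 0.48 ± 0.47 in 27 classical strains and 0.48 ± 0.55 in 60 RI strains (SD), and the interval of the gap was -0.24 to 0.24. For Fos the means were 0.41 ± 0.86 and 0.23 ± 0.82, with a gap between -0.19 and 0.57. By limma 0 of 25697 probes passed the adjusted p, and 1051 (4.09%) had an unadjusted p under 0.05, none of them a probe of these genes.

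The genes around the group were described by lists, and no list was tested as a set. Beside the counts below, 3.72% of all probes were called higher and 3.53% lower. Of 14 measured EGR, NR4A and KLF early factors, 3 were called higher and 0 lower: Nfil3 by 0.37, the nuclear receptor Nr4a3 by 0.32 and Egr2 by 0.35. Of 28 early response effectors 4 were higher and 2 lower. Among them were the cytokine signalling inhibitor Socs3 at 0.75, the matricellular gene Ccn2 at 0.44, the cell cycle inhibitor Cdkn1a at 0.44, and Phlda1 at -0.54. Of 14 DUSP and SPRY feedback genes 0 were higher and 4 lower, namely Dusp8 (-0.34), Dusp7 (-0.30), Dusp16 (-0.24) and Spry4 (-0.21). Dusp1 itself, which those genes resemble in function, was not called. Of 21 upstream kinases and factors, the kinase gene Mapkapk2 was higher (0.22) and Mapk14, which encodes the p38α kinase, lower (-0.29).

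None of 10 AP-1 relatives was called by limma, though 2 were higher and 2 lower at an unadjusted p under 0.05, and the smallest p among them belonged to Batf (0.13, adjusted p = 0.127 by limma) and Atf2 (-0.10, adjusted p = 0.132 by limma). None of 10 MYC partners was called either, 1 being higher and 0 lower at an unadjusted p under 0.05, with Mxd4 at 0.17 (adjusted p = 0.0728 by limma) and Max at 0.08 (adjusted p = 0.312 by limma). The median difference was 0.05 over the 10 genes, 0 over the AP-1 relatives and -0.07 over the feedback genes, beside -0.02 over all detected probes.

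Markers of other cells moved with treatment, and their counts stand beside the same 3.72% higher and 3.53% lower over all probes. Of 12 fibroblast markers 7 were higher in ISO hearts and 0 lower, and their summed intensity ranged over strains between 14600 and 57900 in ISO hearts and between 12600 and 41000 in untreated hearts. Of 10 macrophage markers 9 were higher and 0 lower, with sums between 3840 and 35200 in ISO hearts and between 1780 and 22200 in untreated hearts. Of 11 cardiomyocyte markers 1 was higher (Nkx2-5, 0.32) and 0 lower. At an unadjusted p under 0.05 by limma 1 of them was higher and 3 were lower, and the median difference of the list was -0.02. Of 6 neutrophil markers 3 were higher, of 4 blood, 7 smooth muscle and 6 atrial markers 1 each, and of 11 endothelial and 7 skeletal muscle markers 1 each was lower. Of 5 fat markers none was called by limma, and 1 was lower at an unadjusted p under 0.05. All fibroblast, macrophage and cardiomyocyte markers were detected on some array. The part of these cells in the Junb and Fos differences was not tested.

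Whether the genes moved together from strain to strain was asked next, over 93 strains in each condition. Of 45 pairs of genes, 7 were called in ISO hearts, 6 positive and 1 negative, and 14 in untreated hearts, 13 positive and 1 negative. The untreated calls include Fosb with Fos, Jun, Junb and Atf3, though Fosb was detected on only 17.9% of untreated arrays. For Fosb and Junb rho was 0.14. No pair with Fosb was called in ISO hearts. A call asked for an adjusted p under 0.05 over all probes, with each gene of the pair in turn as the predictor. The backgrounds differ widely: in ISO hearts 2.7% of all probes varied with Fos but 37.4% with Junb and 40.1% with Jun, and in untreated hearts 4.69% varied with Fos, 43% with Junb and 18.5% with Jun. For Egr1 the share was 5.35% in ISO hearts and 3.39% in untreated hearts, and for Atf3 1.94% in ISO hearts and 3.44% in untreated hearts. With Dusp1 21.4% varied in ISO hearts and 21.1% in untreated hearts, with Ier3 13.3% in ISO hearts and 43% in untreated hearts, and with Fosb 0% in ISO hearts and 0.891% in untreated hearts. A pass with Junb or Jun as the predictor therefore says little about a particular partner. In a called pair the partner also had to pass as the predictor, against its own share. Over the 21 pairs of the 7 genes detected on at least 50% of arrays the median r was 0.11 in ISO hearts and 0.22 in untreated hearts, beside 0 over pairs of detected probes. The median of r without its sign was 0.19 in ISO hearts and 0.31 in untreated hearts, beside 0.18 in ISO hearts and 0.23 in untreated hearts over detected probes. The difference between the conditions was not tested.

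**Figure D4:**
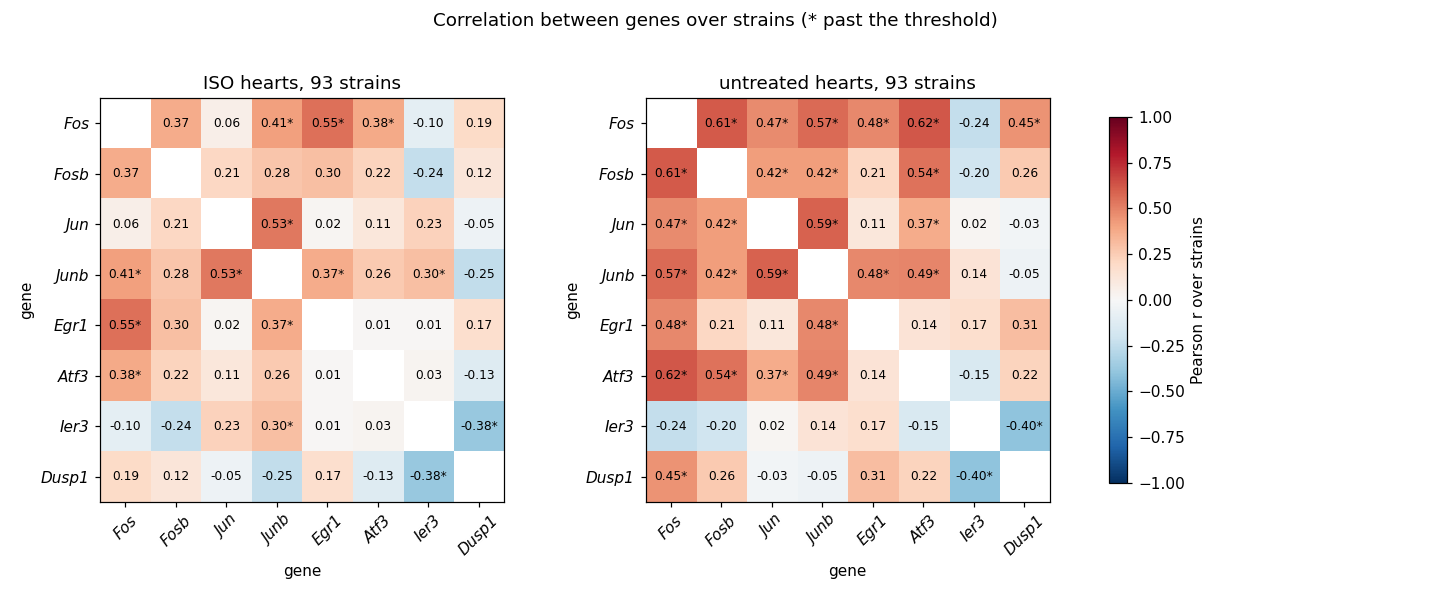
Pearson r over 93 strains between the 8 genes that were detected on more than 1 array, with ISO hearts on the left and untreated hearts on the right, and an asterisk on pairs past the threshold. Fos is positive with Egr1 (0.55 in ISO hearts and 0.48 in untreated hearts) and with Atf3, and Ier3 is negative with Dusp1 in both.

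Fos and Egr1 had the highest pooled r in ISO hearts (r = 0.55, rho = 0.53, permutation p = 1e-05, the smallest that 100000 permutations can give). In untreated hearts r was 0.48 and rho 0.46. Without the 2 strains farthest from the Fos median, r was 0.51 in ISO hearts and 0.48 in untreated hearts. Within BeadChip sets 1, 2 and 3 it was 0.49, 0.63 and 0.53 in ISO hearts, and 0.65, 0.68 and 0.32 in untreated hearts. All of these values were positive. In ISO hearts the pair was past the threshold in set 2 but not in set 1 or 3 alone (adjusted p 0.579 and 0.922 by limma). With BeadChip as a covariate the ISO pair was not called (r = 0.49, adjusted p = 0.0808 by limma). Junb and Egr1 had a lower pooled r of 0.37 in ISO hearts, and 0.48 in untreated hearts. Their set values were 0.66, 0.41 and 0.72 in ISO hearts. With BeadChip as a covariate their r was 0.57 in ISO hearts (adjusted p = 0.000391 by limma) and 0.62 in untreated hearts (adjusted p = 0.000124 by limma).

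**Figure D5:**
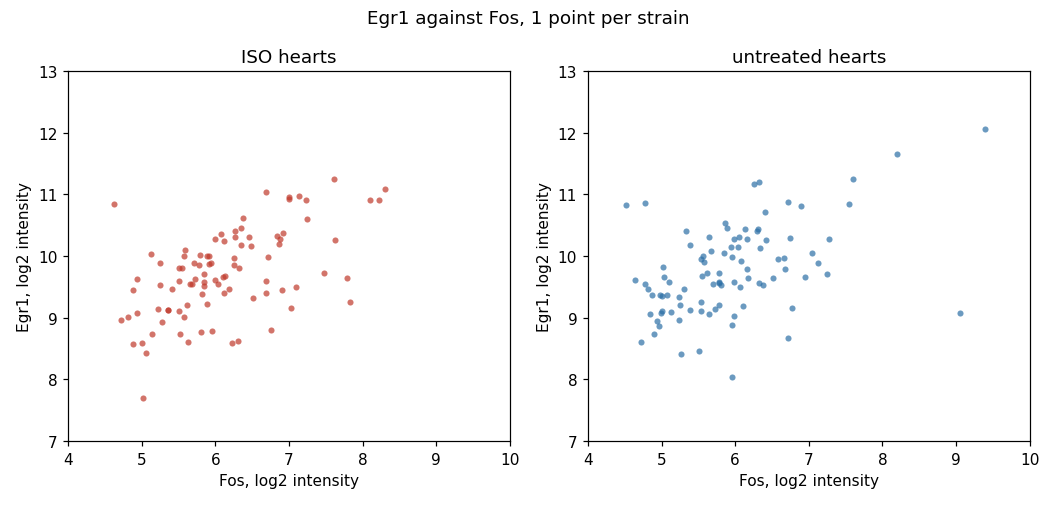
Egr1 level (log2 intensity, y axis) against Fos level (log2 intensity, x axis), 1 point for each of 93 strains, with ISO hearts on the left and untreated hearts on the right. The points rise together in both, with r = 0.55 in ISO hearts and 0.48 in untreated hearts.

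Fos and Atf3 had an r of 0.38 in ISO hearts (rho 0.42, permutation p = 0.00025) and 0.62 in untreated hearts (rho 0.57, permutation p = 1e-05). With BeadChip set as a covariate r was 0.33 in ISO hearts, where the adjusted p was 0.0678 by limma, and 0.57 in untreated hearts. Nor was the ISO pair called with BeadChip as a covariate (0.31, adjusted p = 0.485 by limma), without BeadChips 12, 19, 23 and 24 (0.34, adjusted p = 0.114 by limma) or without background correction (0.31, adjusted p = 0.108 by limma). Fos and Junb had an r of 0.41 in ISO hearts and 0.57 in untreated hearts, with set values of 0.46, 0.35 and 0.44 in ISO hearts and of 0.70, 0.66 and 0.54 in untreated hearts. In ISO hearts Fos and Junb were not past the threshold in any set alone, in RI strains (0.26, adjusted p = 0.381 by limma) or with BeadChip as a covariate (0.30, adjusted p = 0.513 by limma).

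Fos and Fosb had an r of 0.37 in ISO hearts, which was not called, and of 0.61 in untreated hearts. The untreated value was 0.44 without NOD/LtJ and AXB10/PgnJ, and its rho was 0.32. Jun and Junb had an r of 0.53 in ISO hearts and 0.59 in untreated hearts, and with BeadChip set as a covariate 0.33 in ISO hearts and 0.40 in untreated hearts. Without the 5 arrays of low similarity r was 0.42 in ISO hearts and 0.65 in untreated hearts. With BeadChip as a covariate the untreated pair was not called (0.32, adjusted p = 0.258 by limma). The set values were 0.55, 0.23 and 0.18 in ISO hearts and 0.52, 0.53 and 0.24 in untreated hearts.

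Dusp1 and Fos had an r of 0.19 in ISO hearts, which was not called, and of 0.45 in untreated hearts (rho 0.49, permutation p = 3e-05). With BeadChip set as a covariate r was 0.32 in ISO hearts and 0.67 in untreated hearts. The set values in untreated hearts were 0.68, 0.75 and 0.42. Dusp1 and Atf3 in untreated hearts had an r of 0.22 pooled and 0.51 with the covariate, where the adjusted p was 0.000229 by limma. In untreated hearts Dusp1 was lowest and Fos and Atf3 were highest in set 1.

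Ier3 ran against Dusp1, with an r of -0.38 in ISO hearts and -0.40 in untreated hearts. This sign depended on the scaling: with each array scaled to its median in place of quantile normalisation, r was 0.26 in ISO hearts and 0.12 in untreated hearts. With BeadChip set as a covariate the ISO pair was not called (-0.29, adjusted p = 0.103 by limma).

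The genes whose levels were most like these, by Pearson r over 93 strains, included several early genes. For Fos in ISO hearts they were Egr2 (0.55), Ch25h (0.54) and Dynll1 (0.53), and in untreated hearts Errfi1 (0.65), Egr2 (0.61) and Klf2 (0.58). For Egr1 they were Egr2 (0.64), Sfxn1 (0.57) and the chemokine Cxcl1 (0.56) in ISO hearts, and Cxcl1 (0.60), Egr2 (0.59) and Plk3 (0.53) in untreated hearts. Egr2 was in the list of both genes in both conditions. For Atf3 they were Irs2 (0.63), the heat shock gene Hspa1a (0.60) and Mcf2l (0.60) in ISO hearts, and Hspa1a (0.68), Irs2 (0.66) and Sphk1 (0.65) in untreated hearts.

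For Junb they were Bin1 (0.80), Ppp4c (0.78) and Sec61a1 (0.76) in ISO hearts, and Ppp1r15a (0.82), Itga5 (0.79) and Zyx (0.77) in untreated hearts. For Dusp1 they were Csnk2a2 (0.62), Ubl3 (0.62) and Elf1 (0.61) in ISO hearts, and Lrrc8a (0.65), Klf2 (0.63) and Hmgn1 (0.61) in untreated hearts. For Ier3 they were Ehd1 (0.54), Irf3 (0.53) and Rxrb (0.53) in ISO hearts, and Ephx1 (0.70), Ddit3 (0.69) and Osgin1 (0.69) in untreated hearts. No gene was among these 3 in both conditions for Junb, Dusp1 or Ier3, which does not mean that r was low in the other condition. For Junb, Sec61a1 had an r of 0.73 in untreated hearts, and Itga5 0.32 in ISO hearts. For Ier3, Irf3 had an r of 0.62 in untreated hearts, and Ephx1 0.38 in ISO hearts.

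For Jun they were Gphb5 (0.73), Mthfs (0.73) and Cox14 (0.73) in ISO hearts, and Cd151 (0.72), 0610010K14Rik (0.69) and Emc8 (0.69) in untreated hearts. In untreated hearts the r with Jun was 0.26 for Gphb5, 0.45 for Mthfs and 0.62 for Cox14. In ISO hearts 40.1% of all probes varied with Jun, whose level ran against the share of probes detected (r = -0.71). The part of this in the ISO list was not tested. For Fosb in untreated hearts they were Irs2 (0.62), Klf4 (0.62) and Errfi1 (0.58), and in ISO hearts Wnt5a (0.45), Pla2g2d (0.41) and Ccn1 (0.41), whose adjusted p by limma were 0.0531, 0.139 and 0.139. Ier2 and Myc, at background, are left out here.

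The level of a strain was also set against itself across conditions. Over 87 strains r was 0.59 for Junb, 0.53 for Ier3, 0.51 for Fos, 0.47 for Jun, 0.40 for Atf3, 0.39 for Dusp1, 0.27 for Egr1 and 0.24 for Fosb, beside a median of 0.40 over detected probes. With BeadChip set taken out, r was 0.20 for Junb, 0.52 for Ier3, 0.43 for Fos and 0.25 for Jun. It was 0.31 for Atf3, 0.28 for Dusp1, 0.30 for Egr1 and 0.19 for Fosb. In sets 1, 2 and 3 alone r was 0.64, 0.21 and -0.18 for Junb, 0.55, 0.71 and -0.19 for Ier3, and 0.56, 0.37 and 0.31 for Fos. Junb and Ier3 thus had a negative r in set 3, which holds BeadChips 23, 24 and 25. So had Egr1 (-0.21), Fosb (-0.14) and Atf3 (-0.04). Fos, Jun and Dusp1 had a positive r in each set.

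Strains hybridised more than once gave the distance between arrays labelled with the same strain. In each of these strains 1 array was in BeadChip set 1 and the other in set 2 or 3. The distance within a strain thus includes any difference between sets, while many pairs of different strains lie in the same set. Strain and set cannot be told apart in these distances. Of the 9 strains with 2 ISO arrays 5, and of the 13 with 2 untreated arrays 9, had an array on BeadChips 12, 19, 23, 24 or 25, where none of the arrays matched resembled its own strain best. Fos differed by a median of 1.16 within a strain and 0.79 between strains in ISO hearts, and by 0.61 within and 0.76 between in untreated hearts. Atf3 differed by 1.02 within and 0.97 between in ISO hearts, and by 1.28 within and 1.08 between in untreated hearts. For Jun the distances were 0.25 within and 0.40 between in ISO hearts, and 0.21 within and 0.41 between in untreated hearts. In the 4 strains of each condition with no array on those BeadChips, the distance within a strain was 1.07 in ISO hearts and 0.70 in untreated hearts for Fos, 1.12 in ISO hearts and 1.79 in untreated hearts for Atf3, and 0.18 in ISO hearts and 0.27 in untreated hearts for Jun. These distances were not tested.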

How the data were processed

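Left ventricular RNA of 208 pooled samples was hybridised to Illumina arrays. The deposited table holds probe intensity and a detection p-value per array, exported by the authors with GenomeStudio (2010.3), and the authors also deposited normalised log2 values. Detection p-values served as given. Intensities were background corrected, quantile normalised and taken to log2 by neqc (limma 3.58.1, offset 16, R 4.3.3), which differed from the deposited values by a median of 0.00057. The 829 control probes were left out before the background fit. Probes over known variants, which the authors' methods excluded, were not removed here.

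Arrays of a strain and condition were averaged. ISO and untreated levels were paired by strain and tested with limma over all 25697 probes with Benjamini-Hochberg adjustment. The pairing comes from the shared strain: over probes, the deviations of a strain in both conditions correlated by a median of 0.478, above 0.1 in 80 of 87 strains. Co-variation was tested by limma of all probes on each gene, and permutation p-values were two-sided. For arrays, precision is limited by their number, and p-values measure the spread between strains. The fits were tested on simulated data.

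The genes and lists were chosen with earlier results of these data known. Named were all probes of the 10 genes, the 3 most correlated genes of each, the strains at the extremes, and up to 4 called genes of each list by p, or the 2 of smallest p where none was called. The marker lists are given mostly as counts. Alternatives covered pairing, normalisation, detection filters, single arrays, BeadChips and strain classes.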

Additional observations from a re-analysis of the deposited data

How the results depend on the processing

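Without pairing by strain (no replicate block), 1546 probes and 1 of the 11 probes of these genes were called, against 1863 and 2. Fos lost its call there, and the calls of the other genes were not changed. Without background correction 794 probes and 1 of the 11 were called, since the Fos difference fell to 0.11. BeadChip set 1 alone gave 551 probes and 1 of the 11, and set 3 alone 6 and 0, with fewer strains, while set 2 alone called 3 of the 11 (Junb, Fos and Atf3). With no minimum fold 3892 probes were called. Without BeadChips 12, 19, 23, 24 and 25, 2 of the 11 were called. Fos and Junb were also called without the ISO array of AXB-19/PgnJ or that of NOD/LtJ on BeadChip 2, and these 3 alternatives, like the distances without BeadChips, were added once values had been seen.

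Called pairs in ISO hearts numbered 24 with median scaling, 15 with 1 array kept per strain, 13 without BeadChips 12, 19, 23 and 24, 4, 2 and 1 in BeadChip sets 1, 2 and 3 alone, 4 with set and 2 with BeadChip as a covariate, 2 in classical strains and 3 in RI strains, against 7. In untreated hearts they numbered 26 with median scaling, 2, 8 and 0 in sets 1, 2 and 3 alone, 4 in classical and 9 in RI strains, against 14. The ISO correlation of Junb and Ier3 was 0.26 without the 5 arrays of low similarity (adjusted p = 0.0718 by limma) and turned to -0.02 in set 3. That of Ier3 and Dusp1 turned to 0.26 in ISO hearts and 0.12 in untreated hearts with median scaling. Apart from the smaller numbers of strains, the cause was not tested. Probes near background (Ier2, Myc and mostly Fosb) allow no statement.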

Other observations

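The strain by strain differences between ISO and untreated hearts also varied together for some of these genes. Over 87 strains, the Junb and Egr1 differences had an r of 0.61 (rho 0.59, permutation p = 1e-05), and 0.56 without the 2 strains farthest from the Junb median. For Fos and Egr1 r was 0.48, for Fos and Atf3 0.40 and for Fos and Dusp1 0.35. The median over the 21 pairs of detected genes was 0.10, beside 0 over pairs of detected probes, while the median of r without its sign was 0.15 for these genes, beside 0.19 for detected probes. Both differences of a strain come from the same arrays.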
